A study of Danio rerio with 1152 samples.

Results

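Among single cells of the zebrafish embryo at the onset of gastrulation, those without detected TA were divided by their level of TBX16 and compared across the transcriptome. The cells were chosen by their measured levels of TBX16, TA, MIXL1 and 5 keratins. A well entered with at least 2000 detected genes, no UMI (unique molecular identifier, the tag of 1 cDNA molecule) of TA or MIXL1, and under 12 UMIs per 10000 of the keratins KRT4, KRT5, KRT8, KRT18 and CYT1 summed. Of 1152 wells, 1000 had enough detected genes, 768 of these were under the keratin limit, and 28.7% of the 1000 were under it and also lacked TA and MIXL1. TBX16-high cells, with at least 1.5 UMIs of TBX16 per 10000, were 12.7% of the 1000 wells. TBX16-low cells, with at most 0.5, were 10%, which is 100 cells. The remaining 60 cells lay between these limits.

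The wells were meant to hold 1 hand-picked cell each, taken from blastoderm caps dissected off the yolk at 50% epiboly, about 6 hours after fertilization. Embryos came from in-crosses of TL/AB fish, and no mutant, transgene or treatment is named, so that all groups share 1 genotype and stage. The wells form 3 experimental batches, which serve as the replicates of every comparison. How many embryos or clutches gave a batch is not stated, so the spread between batches may be technical.

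T-box proteins are transcription factors that bind a common DNA motif. TBX16 (spadetail) and TA (a zebrafish Brachyury, known as no tail) are expressed at the blastoderm margin, where Nodal, FGF and Wnt signals induce mesoderm and endoderm, and both factors are required for mesoderm formation. MIXL1 is a homeobox factor of the mesendoderm that Nodal induces. Cells nearer to the animal pole carry SoxB1 factors such as SOX3 and SOX19A and contribute mainly to ectoderm. The keratins mark the enveloping layer, the outer epithelium of the embryo.

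By batch, 38, 59 and 30 cells were TBX16-high without TA, and 35, 43 and 22 were TBX16-low. Cells without TA made up 27.1%, 42.2% and 19.05% of the kept wells of batches 1, 2 and 3. In batches 1, 2 and 3, respectively, 40.4%, 47.2% and 44.1% of the cells without TA were TBX16-high. Their 95% Wilson intervals, which cover counting error only, overlapped and ran from 31.1 to 50.5, from 38.7 to 55.9 and from 32.9 to 55.9. The median total was 56855, 52896 and 29853 UMIs in TBX16-high cells and 57908, 55753 and 34676 in TBX16-low cells. Depth was therefore slightly lower in TBX16-high cells in all 3 batches (exact sign-flip test over batches, two-sided p = 0.25, the smallest that 3 batches allow). One pair of wells from different batches agreed within sampling noise (chi-square per degree of freedom 0.500, the next pair 1.66), and neither well was in these classes.

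TBX16 itself set the classes, so its values are a description. Summed per batch, its level was 0.147, 0.150 and 0.116 UMIs per 10000 in TBX16-low cells. It was 0.859, 0.969 and 1.05 in the intermediate cells and 2.71, 3.50 and 3.08 in TBX16-high cells. Single TBX16-high cells spanned 1.502 to 8.29 with a median of 2.85, which corresponds to a median of 13 UMIs, with at least 2 in each cell. The lowest TBX16-high cells had 1.502, 1.54 and 1.55 and the nearest cells outside had 1.48, 1.47 and 1.47. The uppermost TBX16-low cells had 0.497, 0.494 and 0.474, and the nearest outside had 0.503, 0.511 and 0.530. No gap in the level of TBX16 coincided with either limit.

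The cells without TA also formed 1 continuous range of TBX16 counts. There were 58 cells with no TBX16 UMI, 28 with 1, 76 with 2 to 5, 45 with 6 to 10 and 80 with more than 10. TBX16 was at 0 in 20.2% of them. For 522 genes of like mean level (between 0.8 and 1.25 times that of TBX16) the median share of cells at 0 was 25.4% (quartiles 20.2 and 31.01), and 72.8% of these genes had more cells at 0 than TBX16 did. The variance of TBX16 divided by its mean was 1.98, against a median of 2.15 for the like genes. These values describe the gene that set the classes. EVE1, a homeobox gene of the ventral margin, was at 0 in 63.1% of the cells, against a median of 36.2% for genes of its level. SULT6B1, named for its likeness to sulfotransferases, was at 0 in 19.5% against 2.79%, RGCC, a cell-cycle regulator, in 41.1% against 20.9%, and IRX7, an Iroquois homeobox factor, in 54.7% against 31.9%. These 4 genes were chosen after their values were seen.

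**Figure D1:**
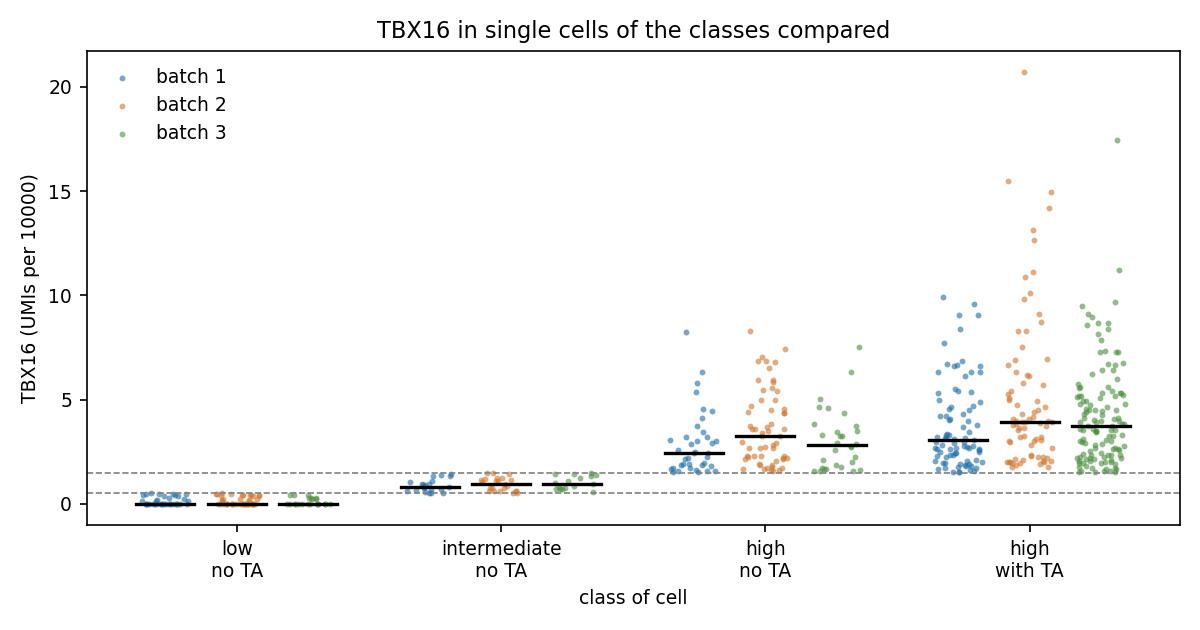
TBX16 in single cells, in UMIs per 10000, for TBX16-low, intermediate and TBX16-high cells without TA and for TBX16-high cells with TA, by batch; bars mark medians and dashed lines the limits of 0.5 and 1.5. Cells without TA reach 8.29 and cells with TA reach 20.7, and no gap is seen at either limit.

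**Figure D2:**
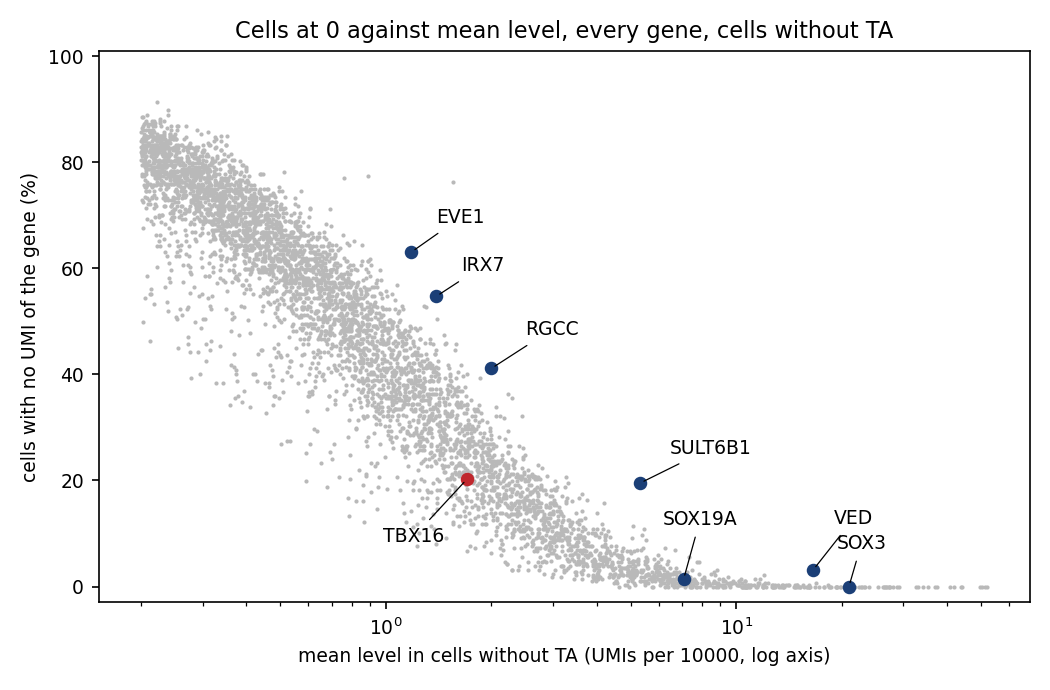
Share of the cells without TA in which a gene has no UMI, against its mean level (log axis); each point is a gene. TBX16 (red, 20.2%) lies inside the band of genes of its level, while EVE1 (63.1%), IRX7, RGCC and SULT6B1 lie above theirs.

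The absence of TA in a cell has a limit set by depth. A count of 0 allowed up to 0.653 UMIs of TA per 10000 in the median TBX16-high cell, taking 3 counts as the limit (range 0.302 to 2.87 over cells). In cells that had TA and were TBX16-high, which were 28.5% of the 1000 wells, the median TA level was 2.36 (range 0.128 to 23.9). Of those cells, 37 lay below 0.653, 22 had a single TA UMI and 76 had no MIXL1. A cell with little TA could therefore be counted as lacking it.

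The first comparison asked whether TBX16-high and TBX16-low cells without TA differ in any other gene. No gene was called. Across 7881 genes tested with edgeR's quasi-likelihood test, 0 were higher and 0 lower at an adjusted p under 0.05, which is 0.0% in each direction and in either, and the smallest adjusted p was 0.994. Of those tested, 4.16% passed an unadjusted p of 0.05, with 160 of them lower in TBX16-high cells. DESeq2 called 1 gene (GSTM3, tested only through the TBX16-low cells) and limma on mean log values called 0. The median 95% interval reached 1.12 on the log2 scale to either side of its estimate, before any adjustment for the number of genes.

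SOX3, SOX19A, ZIC2B and SHISA2, all abundant, were measured precisely. SOX3, a SoxB1 factor of the early ectoderm, had 20.6, 22.1 and 22.8 UMIs per 10000 in TBX16-low cells and 19.7, 19.98 and 23.4 in TBX16-high cells. The classes overlapped, and every cell of both classes carried SOX3. Its log2 difference, TBX16-high minus TBX16-low, was -0.09 with a 95% interval of -0.27 to 0.08. It was 0.04 when cells holding any of 5 other margin genes were left out, which kept 57 TBX16-low and 67 TBX16-high cells. SOX19A, a second SoxB1 factor, differed by -0.16 (-0.41 to 0.08) and ZIC2B, a zinc-finger factor of the ectoderm, by 0.04 (-0.15 to 0.23). SHISA2, whose family restrains Wnt and FGF receptors, differed by -0.15 (-0.34 to 0.04). For these 4 genes the intervals exclude a difference of 0.5 or more on the log2 scale. SOX2 was low in both classes, at 0.948, 0.481 and 0.617 in TBX16-low cells and 0.363, 0.253 and 0.636 in TBX16-high cells, which overlap. Of the 31 animal ectoderm genes measured, 21 had enough counts to be tested and none was called. Estimates were above 0 in 6 of the 21 and below in 15. The median log2 difference was -0.11, against 0.02 for all genes.

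Margin genes were sparse in both classes. WNT8A, a Wnt ligand of the margin, had a UMI in 6 TBX16-low cells and in 5 TBX16-high cells (3.94%). NDR1 (squint), a Nodal ligand, had one in 3 and 4 cells, LFT2, a feedback inhibitor of Nodal, in 3 and 6 cells, and FGF8A, an FGF ligand, in 2 and 6 cells. These 4 genes were under the limit for testing. After each cell was thinned to 10000 UMIs, their counts of cells were 2, 1, 0 and 1 of 99 TBX16-low cells and 3, 2, 3 and 3 of the TBX16-high cells, with 1 TBX16-low cell too shallow. EVE1 was seen more often than these 4 genes, with a UMI in 34% of TBX16-low cells (Wilson 95% interval 25.5 to 43.7) and 40.2% of TBX16-high cells (32.04 to 48.9). These intervals pool the cells of all batches and cover counting error only, so they do not measure the spread between batches. After thinning the shares of EVE1 were 25.3% and 22.8%. Its level was 1.97, 0.670 and 2.43 in TBX16-low cells and 0.587, 0.680 and 2.56 in TBX16-high cells, and its log2 difference of -0.57 had an interval of -1.24 to 0.10. Each of these 5 margin genes thus had no UMI in most cells of either class, while all cells had SOX3. Cells with no UMI of any of the 5 numbered 57 TBX16-low and 67 TBX16-high. The remaining cells of each class held a UMI of at least 1 of the 5. Position in the embryo was not measured, so the cells are called here by their TBX16 level and not by a zone.

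No member of the Nodal, FGF or Wnt lists was called. Of 13 genes of Nodal ligands and feedback 8 were tested, with a median log2 difference of 0.20. FOXH1, the transcription factor that works with Smads in Nodal signalling, differed by -0.01 (-0.28 to 0.26), and TGIF1, a repressor in the same pathway, by -0.16 (-0.45 to 0.13). Of 16 FGF feedback and target genes 13 were tested, with a median of 0.28. ETV5B, an Ets factor induced by FGF, differed by -0.01 (-0.30 to 0.29). ETV4, its relative, had 3.64, 3.79 and 3.93 in TBX16-low cells and 3.56, 3.36 and 3.11 in TBX16-high cells. All 3 TBX16-high sums lay below the TBX16-low sums, but the difference of -0.21 (-0.52 to 0.09) did not pass the test. Of the 9 Wnt ligands and receptors tested, 8 had negative estimates, with a median of -0.96, and none of these 8 was under an unadjusted p of 0.05. WNT11, the member with a positive estimate, was under it. FZD7A, a Frizzled receptor, differed by -0.65 (-1.499 to 0.19) and FZD7B by -0.25 (-0.57 to 0.07).

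SP5L and HSPB1 stood lower in TBX16-high cells of every batch, and did not pass either. SP5L, a zinc-finger factor induced by Wnt and FGF, had 2.82, 1.49 and 2.67 in TBX16-low cells and 1.70, 1.04 and 1.49 in TBX16-high cells. It was lower in TBX16-high cells in each batch, though the classes overlapped across batches. Its log2 difference was -0.73 (-1.13 to -0.32), with an unadjusted p of 0.00189 and an adjusted p of 0.994 by edgeR. HSPB1, a small heat shock protein, was 42.8, 49.8 and 63.7 against 39.03, 43.8 and 51.9. It too was lower in each batch (-0.24, -0.38 to -0.10, adjusted p 0.994).

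Some margin genes had estimates above 0. APLNRB, a receptor that guides mesendoderm movement, had 0.0659, 0.0750 and 0.308 in TBX16-low cells and 0.181, 0.542 and 0.813 in TBX16-high cells. WNT11, a ligand of the non-canonical Wnt pathway that gastrulation movements need, had 0.162, 0.00882 and 0.270 against 0.826, 0.348 and 0.292. NOTO (floating head), a homeobox factor of the axial mesoderm, had 0.552, 0.512 and 0.771 against 0.797, 0.946 and 1.21. WNT11 and NOTO did not overlap between the classes, and APLNRB did. The share of all genes tested whose sums did not overlap is not given here. Overlap is therefore only a description for these and the other single genes of this comparison. The log2 differences were 1.87 (0.68 to 3.05) for APLNRB, 2.23 (0.54 to 3.93) for WNT11 and 0.65 (0.02 to 1.29) for NOTO, each with an adjusted p of 0.994. In TBX16-high cells 1 cell held 20.6% of the UMIs of APLNRB and 1 held 20.8% of those of WNT11. Without the cells that held any of 5 other margin genes, WNT11 had a difference of 1.14 (-2.12 to 4.41) and APLNRB one of 1.85 (0.31 to 3.39). GATA5, a zinc-finger factor of endoderm and heart precursors, had 3 UMIs in 2 TBX16-low cells and 29 UMIs in 12 TBX16-high cells, and is given as counts only. Of the 12 Nodal-induced margin genes tested, 8 had positive estimates and none was called. By edgeR 3 of the 12 were under an unadjusted p of 0.05, against 4.16% of all genes tested. GATA5 is among these 3, and it reached the limit for testing only through the TBX16-high cells (a UMI in 2% of TBX16-low and 9.45% of TBX16-high cells).

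GSTM3 and NARF had the smallest unadjusted p-values of the genes tested by edgeR (0.000611 for NARF). Both lie outside the lists, and they were named after their values were seen. NARF had 0.745, 0.635 and 0.244 UMIs per 10000 in TBX16-low cells and 1.61, 1.31 and 1.34 in TBX16-high cells, and the classes did not overlap. Its log2 difference was 1.42 (0.72 to 2.11), and it was called only when no filter on low counts was used. GSTM3, a glutathione transferase, had a UMI in 12 TBX16-low cells and 5 TBX16-high cells (12% and 3.94%). It reached the limit for testing, a UMI in 5% of the compared cells, only through the TBX16-low cells. Its values are therefore a description, though DESeq2 called it, as did edgeR without the filter. The levels were 0.380, 0.273 and 0.206 against 0.00955, 0.0230 and 0. In TBX16-high cells 1 cell held 55.6% of its 9 UMIs. Leaving out a batch gave other calls, chosen here for that reason. IRX7 was called without batch 1 (adjusted p = 0.000249), and BLF, a zinc-finger factor of gastrulation, with HSP90AA1.2, a heat shock protein, without batch 2. In batch 1 IRX7 was higher in TBX16-high cells, at 1.67 against 1.35, while in batches 2 and 3 it was lower, at 0.440 against 1.16 and 0.646 against 3.16.

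Among other T-box genes, TBX6, a factor of the paraxial mesoderm, had 62 UMIs in TBX16-low and 46 in TBX16-high cells, and its difference of -0.55 spanned -2.68 to 1.59. MGAA, the T-box protein related to MGA, differed by 0.79 (-0.09 to 1.68). Of the segmentation genes, HES6 differed by -0.31 (-0.79 to 0.18) and HER7 by 0.40 (-0.07 to 0.87), both Hairy-related repressors. VED, a ventral homeobox repressor downstream of BMP, was 15.97, 13.1 and 21.3 against 17.3, 16.999 and 20.6. The classes overlapped and the difference was 0.11 (-0.08 to 0.31). POU5F3, the maternal pluripotency factor, differed by -0.02 (-0.21 to 0.17) and the adhesion protein EPCAM by 0.11 (-0.09 to 0.30). ID1, a BMP target, differed by 0.04 (-0.11 to 0.19). Retinoic acid genes RDH10B and CRABP2B differed by -0.21 (-0.67 to 0.24) and 0.41 (-0.15 to 0.97).

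Levels of the named genes were also followed across finer steps of TBX16. Cells without TA were set in 4 steps of TBX16, at most 0.5, between 0.5 and 1.5, from 1.5 to under 3, and 3 or more, with 100, 60, 69 and 58 cells. Of 81 named genes other than TBX16, 0 were higher and 0 lower at every successive step in all 3 batches. A step held 13 to 43 cells in a batch, so counting error alone can break such an order, and a graded change is not excluded. CCNB1, a mitotic cyclin, was higher at every step in 2 batches, and HSPB1 and IRX7 were lower at every step in 2. SOX3 was 18.2, 22.1 and 21.9 at the third step and 22.7, 17.7 and 25.3 at the uppermost one. SP5L was lowest at the uppermost step in batches 1 and 3, at 0.529 and 0.847, while in batch 2 it was 1.21, above the 0.894 of the step before.

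**Figure D3:**
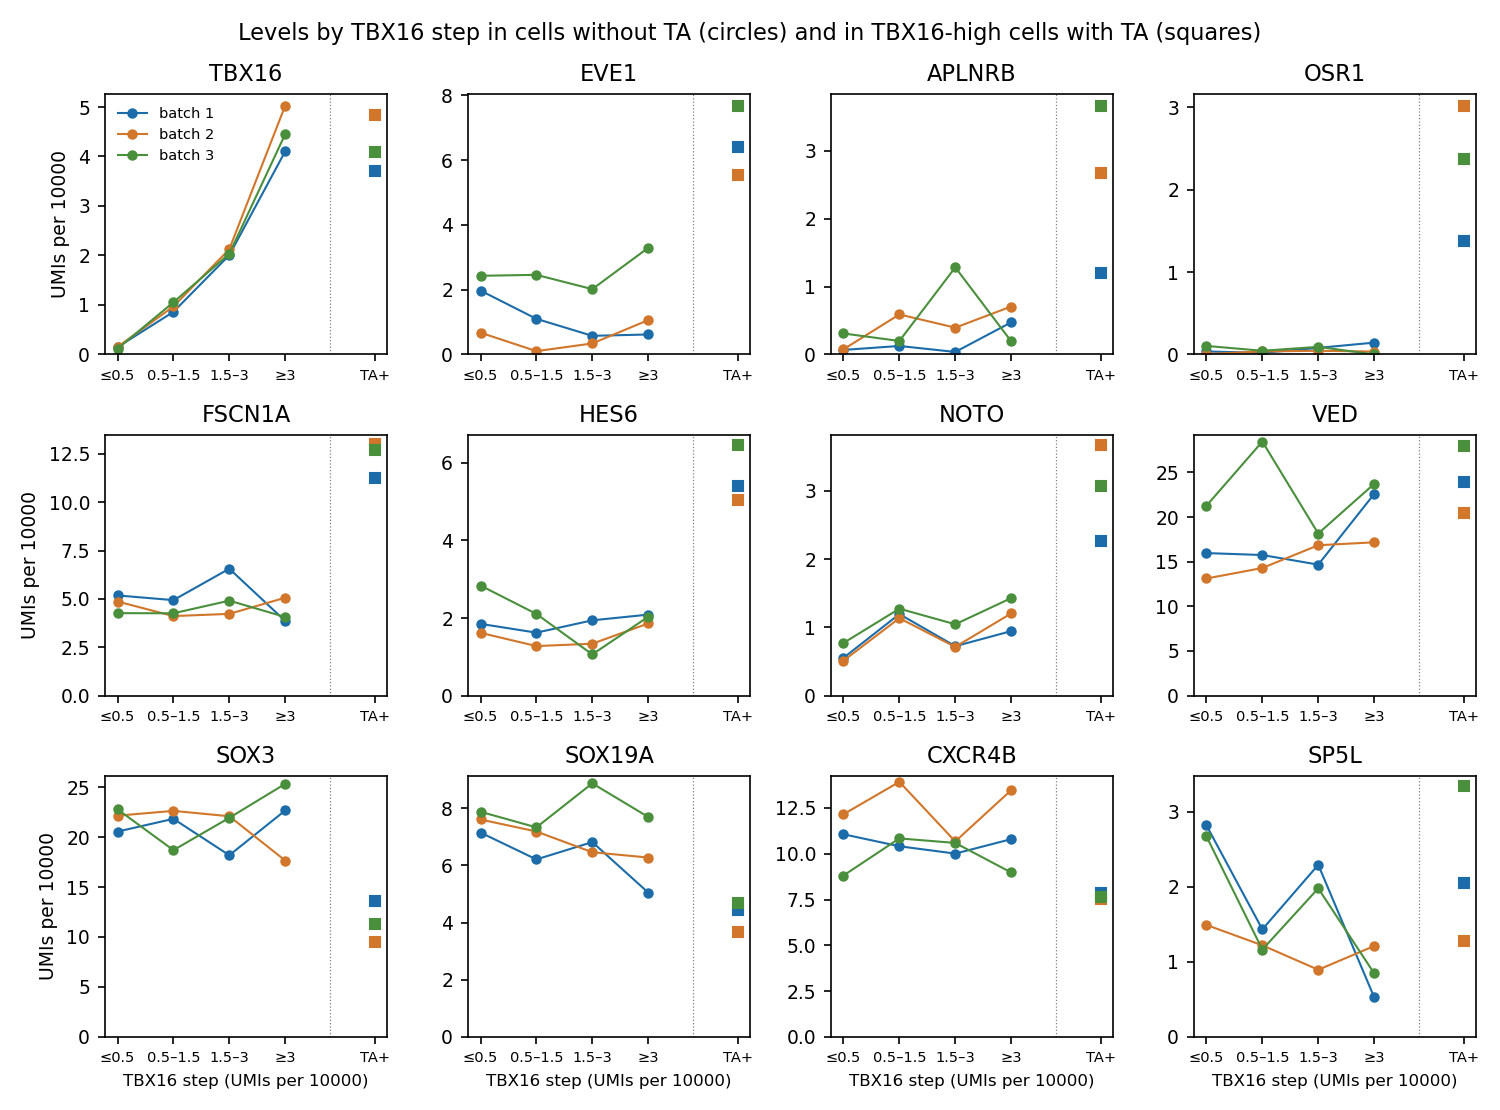
Levels in UMIs per 10000 of 12 genes by step of TBX16 in cells without TA (circles joined by batch) and in TBX16-high cells with TA (squares); each point is the sum over the cells of 1 batch. TBX16 rises by construction, SOX3 stays between 17.7 and 25.3 over the 4 steps, and the cells with TA stand apart for EVE1, OSR1, FSCN1A, HES6, NOTO and SOX3.

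Summed markers of other cells and of cell state were near each other in the TBX16 classes, while single markers of the yolk syncytial layer went both ways. The 24 enveloping layer genes of the list, which holds none of the 5 keratins of the rule, summed to 3.28, 3.00 and 2.74 UMIs per 10000 in TBX16-low cells and 3.24, 2.92 and 3.28 in TBX16-high cells. The 14 yolk syncytial genes summed to 7.50, 6.60 and 9.95 against 7.81, 8.15 and 9.15. The apolipoprotein genes APOC1L and APOEB held most of each sum. Of the 4 genes of that layer tested, 3 had estimates above 0 and 1 below. Their median was 0.54, against 0.02 for all genes. CTSLL, one of the defining markers of that layer, was higher in TBX16-high cells in all 3 batches. It was at 0.453, 0.102 and 0.2502 against 0.0760, 0.0573 and 0.0771, without overlap (adjusted p 0.994 by edgeR). In TBX16-high cells 1 cell held 22% of its UMIs. APOA2, another of those markers, went the other way, with no UMI in TBX16-high cells and some in TBX16-low cells. The values of the remaining markers, HNF4A and MXTX2, are not given here. The 9 germ cell genes summed to 2.73, 3.42 and 2.63 against 2.52, 2.83 and 3.14. The 34 p53 and stress genes summed to 62.3, 69.8 and 83.8 against 60.1, 65.9 and 75.1, lower in TBX16-high cells in each batch. HSPB1, itself lower in each batch, held most of each sum, so the sums do not speak for the other genes. Of the 20 genes of that list tested, 12 had estimates above 0 and 8 below. Their median was 0.26, against 0.02 for all genes. Without the cells highest in that list the number of called genes was still 0. The 27 G2M genes summed to 74.3, 70.7 and 69.9 against 72.2, 77.5 and 78.5, and the 23 S phase genes to 129.3, 116.1 and 117.7 against 125.5, 112.5 and 120.5.

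The second comparison kept TBX16 high and changed TA, and MIXL1 changed with TA by the choice of cells. The cells without TA had no MIXL1 UMI, while those with TA could have any number. This comparison does not tell the parts of TA and MIXL1 in the differences apart. The cells with TA but no MIXL1 UMI were not compared on their own. TBX16-high cells with TA, of which 29.8%, 27.02% and 43.2% came from batches 1, 2 and 3, were set against those without TA. The cells without TA entered the first comparison too, so that the results of the pair are not independent and are only placed side by side. Of 8309 genes tested, 68 (0.818%) were higher and 15 (0.181%) lower in cells with TA at an adjusted p under 0.05, or 83 genes (0.999%) in either direction. TA and MIXL1 set these classes and were not tested. At an unadjusted p under 0.05 there were 573 genes. Without batch 3, which held the most cells with TA, 21 were higher and 1 lower, and 22 of the 83 were still called. The cause of this loss was not tested. Among the 8309 genes, 472 reached the limit for testing, a UMI in 5% of the compared cells, only through the cells with TA, and 16 of the 83 called genes are of this kind. Such genes had to be higher with TA, so they are described by their levels. Their calls enter the counts of genes called or lost, and no other test of theirs is used. Of 46 called genes named by the rule, 17 were called without each batch in turn, among them OSR1, GATA5, APLNRB, FSCN1A, WNT11, EVE1, HES6, NOTO, SNAI1A and SHISA2. MESPAB, KIRREL3L and ALDH1A2 are also among the 17, and each reached the limit for testing only through the cells with TA.

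Cells with TA were deeper in each batch, with medians of 60911, 54614 and 40598 UMIs (exact sign-flip test against cells without TA, two-sided p = 0.25, the smallest possible). Their median of the 5 keratins was 5.63, 3.17 and 3.06 UMIs per 10000, against 2.65, 1.78 and 2.17, higher in each batch. Their TBX16 was higher as well, at 3.71, 4.85 and 4.10. With TBX16 held between 1.5 and 4 in both classes, 40 genes were higher and 8 lower, and 46 of the 83 were still called. With only cells of at least 20000 UMIs, 79 of the 83 were still called. The part of the keratins in these differences was not tested.

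Of the Nodal-induced margin genes 16 were tested, 5 of them only through the cells with TA. Higher in cells with TA were 10 of the 16, against 0.818% of all genes tested, and 2 of these 10 belong to those 5. The list was chosen with earlier results of these data known. OSR1, a zinc-finger factor that holds back endoderm in the margin, had 0.100, 0.0394 and 0.0521 UMIs per 10000 without TA and 1.38, 3.02 and 2.37 with TA. The log2 difference was 5.07 (SE 0.37, adjusted p = 1.82e-06 by edgeR). It had a UMI in 7.87% of the cells without TA and 52.98% of those with TA, or 4.72% and 43.2% after thinning. GATA5 rose by 4.58 (SE 0.43), from 0.0764, 0.0328 and 0.0313 to 0.732, 1.36 and 1.74. APLNRB rose by 2.36 (SE 0.18), from 0.181, 0.542 and 0.813 to 1.198, 2.68 and 3.66. FSCN1A, an actin-bundling protein, was present in nearly every cell of both classes and rose by 1.30 (SE 0.10), from 5.66, 4.62 and 4.55 to 11.3, 13.03 and 12.7. In none of these 4 genes did the classes overlap. The share of all genes tested without overlap is not given for this comparison or the later ones. Overlap is therefore only a description there too.

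NDR2 and WNT11, signal ligands of the margin, were called higher in cells with TA. WNT8-2 was called as well and is described with WNT8A below. NDR2 (cyclops), a Nodal ligand, rose by 3.09 (SE 0.43). WNT11 rose by 3.64 (SE 0.25), from 0.826, 0.348 and 0.292 to 5.61, 7.77 and 4.29. NDR1, LFT1, LFT2, WNT8A and FGF8A could be tested only through the cells with TA, and their values are a description. NDR1 was 0.0620, 0 and 0.0104 UMIs per 10000 without TA and 0.221, 0.6001 and 0.473 with TA. LFT2, which restrains the Nodal ligands, was 0.00477, 0.0296 and 0.0834 without TA and 0.212, 0.373 and 0.446 with TA. Its relative LFT1 had 2 UMIs without TA and 388 with TA, a ratio of 81.5 in level from UMIs pooled over cells and batches. WNT8A was 0.0620, 0 and 0 without TA and 0.496, 1.06 and 0.770 with TA. WNT8-2 was 0.0573, 0 and 0 without TA and 0.459, 1.07 and 0.811 with TA. It had a UMI in 5.51% of the cells without TA, just past the limit of 5%, against 3.94% for WNT8A. With 12 UMIs without TA where WNT8A had 13, WNT8-2 may share the reads of WNT8A. Its call is therefore not taken as separate from WNT8A, and its values are a description too. FGF8A was 0.00477, 0.112 and 0.0521 without TA and 0.474, 1.15 and 0.540 with TA, and 60.0% of its 40 UMIs in cells without TA lay in 1 cell. The sums of NDR1, LFT2, WNT8A and FGF8A did not overlap between the classes. The limit for testing took in these genes through the cells with TA, so this separation is no evidence of a difference.

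Of the FGF targets, DUSP4 and DUSP6, phosphatases that dampen ERK, rose by 2.57 (SE 0.37) and 1.21 (SE 0.25), and FLRT3, a membrane protein of FGF signalling, by 2.89 (SE 0.47). DUSP6 was called in none of the fits without a batch (adjusted p 0.106 to 0.252 by edgeR). Without batch 3 the calls of NDR2 (adjusted p = 0.162 by edgeR), DUSP4 (0.342), FLRT3 (0.373) and WNT8-2 (0.346) were lost as well. NDR1, LFT1, LFT2, WNT8A and FGF8A were not called without batch 3 either. WNT11 was still called.

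Mesodermal transcription factors were also among the calls. EVE1 rose by 2.64 (SE 0.25, adjusted p = 1.92e-05), from 0.587, 0.680 and 2.56 without TA to 6.41, 5.53 and 7.68 with TA. Batch 3 was high in both classes, and the classes did not overlap. HES6 rose by 1.71 (SE 0.13), from 1.99, 1.59 and 1.48 to 5.41, 5.05 and 6.46. TBX6 rose by 2.85 (SE 0.50), CDX4, a caudal homeobox factor of the posterior body, by 3.40 (SE 0.46), and DKK1B, a Wnt antagonist, by 4.43 (SE 0.55). NOTO rose by 1.59 (SE 0.16) and FOXA3, a forkhead factor of endoderm and axial mesoderm, by 3.11 (SE 0.34). MESPAB, MESPAA, MSGN1 and PCDH8 could be tested only through the cells with TA. MESPAB, a segmentation factor, had 3 UMIs without TA and 960 with TA, and MESPAA had 1 and 510. Their ratios in level were 134.4 and 214.2, from UMIs pooled over cells and batches. The UMIs of MESPAA with TA lay in 12.3% of the cells. MSGN1, a factor of the presomitic mesoderm, had 4 UMIs without TA and 574 with TA, with sums of 0, 0.0131 and 0 against 0.229, 0.296 and 0.6501. PCDH8 (paraxial protocadherin) had no UMI without TA and a level of 0.180 with TA, 36.7 times the level that 3 counts over the class without TA would give. SNAI1A, a repressor of epithelial adhesion genes, rose by 0.99 (SE 0.10), from 3.96, 4.43 and 3.75 to 6.98, 8.44 and 9.33. PCDH8 was seen in TBX16-low cells without TA of batch 3, at 0.103. Without batch 3 the calls of TBX6 (adjusted p = 0.376 by edgeR) and DKK1B (0.149) were lost, as were those of MSGN1, MESPAA and PCDH8.

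SOX3, SOX19A and ZIC2B of the animal ectoderm list were lower in cells with TA, and the list as a whole went both ways. SOX3 fell from 19.7, 19.98 and 23.4 to 13.6, 9.48 and 11.3 UMIs per 10000, a log2 difference of -0.91 (SE 0.09, adjusted p = 3.24e-05), with every batch below the lowest sum without TA. It was present in 90.9% of cells with TA and in all cells without TA. SOX19A (-0.72, SE 0.10), ZIC2B (-0.52, SE 0.07) and SHISA2 (-0.73, SE 0.07) fell as well, as did SNAI2, a Snail-family repressor (-0.62, SE 0.11), CXCR4B, a chemokine receptor (-0.50, SE 0.08), and ALCAMB, an adhesion molecule (-0.61, SE 0.13). ZIC2A, the paralogue of ZIC2B, went the other way and rose by 2.63 (SE 0.28), from 0.401, 0.276 and 0.209 to 1.34, 2.25 and 2.17. Of 22 animal ectoderm genes tested, 3 were called lower and 2 (ZIC2A and ZNF703) higher. Among all genes tested, 0.181% were called lower and 0.818% higher. Estimates of the 22 were above 0 in 13 and below in 9, with a median of 0.11, against 0.03 for all genes. Without batch 3 SOX3 (adjusted p = 0.0670), SOX19A (0.133), ZIC2B (0.0840), CXCR4B (0.146), SNAI2 (0.485), ALCAMB (0.726) and ZIC2A (0.0654) were no longer called, while SHISA2 was.

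A few calls belonged to other groups. Their counts stand beside 0.999% of all genes tested that were called in either direction. GADD45BA, a stress-inducible gene, rose by 3.08 (SE 0.22), from 0.210, 0.210 and 0.282 to 1.58, 2.20 and 2.21, and was the only call of 23 stress genes tested. DDX4 (vasa), a germ line RNA helicase, rose by 1.16 (SE 0.15), from 0.974, 1.199 and 1.40 to 2.42, 2.77 and 2.79. It was the only called germ cell gene of 9, and the list summed to 4.52, 6.45 and 5.06 against 2.52, 2.83 and 3.14, with none of its genes at 0 in either class. APOC1L, an apolipoprotein of the yolk syncytial layer list, rose by 0.56 (SE 0.10), and that list summed to 10.6, 10.3 and 12.2 against 7.81, 8.15 and 9.15, with APOA2 at 0 in TBX16-high cells without TA. The part of germ cell and yolk RNA in the other differences was not tested. CTH1 and VRTN of the maternal list rose by 0.97 (SE 0.12) and 0.78 (SE 0.11), and VENT by 1.24 (SE 0.18), though without batch 3 CTH1 (adjusted p = 0.105 by edgeR), VRTN (0.132), VENT (0.0840) and APOC1L (0.346) were not called. ALDH1A2, the retinoic acid synthase, could be tested only through the cells with TA and was 0, 0 and 0.125 without TA and 0.349, 0.509 and 0.591 with TA. No enveloping layer, G2M, S phase or housekeeping gene was called, and CCNB1 (-0.09, adjusted p 0.916) and RRM2 (-0.02, adjusted p 0.974) are examples.

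The values of single genes in the comparisons are placed side by side here, and their difference was not tested. The TBX16-high cells without TA are added in one difference and subtracted in the other, so that any error in their sums moves the estimates in opposite directions. FSCN1A had a difference of 0.01 (-0.26 to 0.28) by TBX16 and 1.30 (1.08 to 1.52) by TA. For HES6 the values were -0.31 (-0.79 to 0.18) and 1.71 (1.43 to 1.99), and for SNAI1A -0.27 (-0.54 to 0.00) and 0.99 (0.77 to 1.21). For GADD45BA they were -1.18 (-2.16 to -0.19) and 3.08 (2.61 to 3.56). For APLNRB they were 1.87 (0.68 to 3.05) and 2.36 (1.97 to 2.75).

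**Figure D4:**
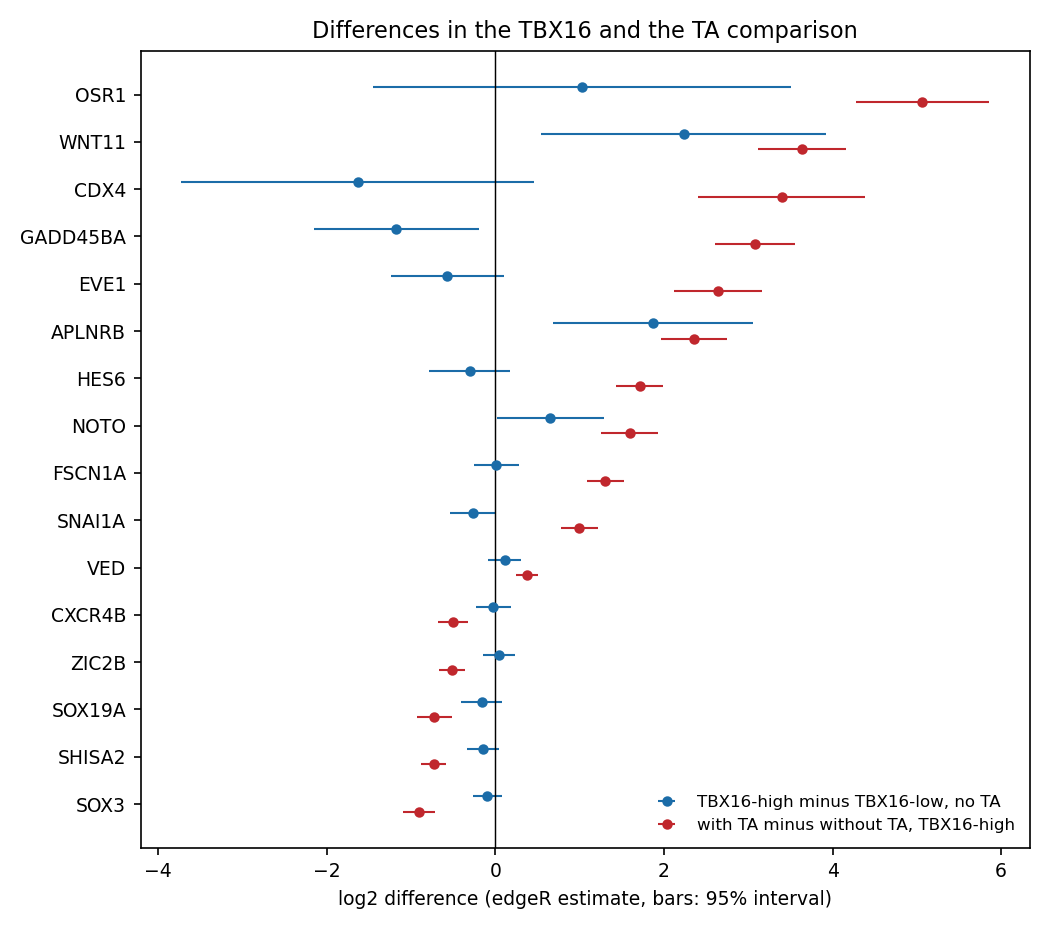
Log2 differences of 16 genes with 95% intervals (edgeR), TBX16-high minus TBX16-low in cells without TA (blue) and with TA minus without TA in TBX16-high cells (red). The comparisons share the TBX16-high cells without TA; for FSCN1A, HES6 and SOX3 the blue intervals include 0 and the red ones lie to 1 side of it.

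Cells with TA could be divided by TBX16 too, with 52 TBX16-low cells (25, 9 and 18 by batch) set against the TBX16-high cells with TA. Of 8411 genes tested, 1 (0.0119%) was higher and 1 (0.0119%) lower in TBX16-high cells, or 0.0238% in either direction, with 421 under an unadjusted p of 0.05. SOX3 was 18.1, 17.7 and 18.4 in the TBX16-low cells with TA and 13.6, 9.48 and 11.3 in the TBX16-high cells with TA. The classes did not overlap, and the log2 difference was -0.72 (SE 0.10, adjusted p = 0.0138). These classes differed in TA too, at 1.83, 1.06 and 1.71 in the TBX16-low and 2.60, 4.32 and 3.85 in the TBX16-high cells. MIXL1 was 0.515, 0.567 and 0.379 against 1.81, 3.43 and 3.16. This comparison does not tell the parts of TBX16, TA and MIXL1 in the calls apart. ZIC2A rose by 1.87 (SE 0.31, adjusted p = 0.0428), from 0.467, 0.469 and 0.530 to 1.34, 2.25 and 2.17. DESeq2 called 14 higher and 14 lower, edgeR without the batch term called 0 in either direction, and leaving out a batch gave 5 to 7 higher and 1 to 5 lower.

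Whether the TBX16 difference itself depended on TA was tested as an interaction over all 12 sums, with the same unequal TA among the cells that had it. Of 8202 genes 0 were called in either direction (0.0%), with 4.38% under an unadjusted p of 0.05 and a smallest adjusted p of 0.208 by edgeR. Leaving out each batch also gave 0. GADD45BA had an estimate of 2.46 (1.55 to 3.38). For SOX3 the difference of differences was -0.60 (-0.91 to -0.30, adjusted p 0.806) and for FSCN1A 0.77 (0.36 to 1.17, adjusted p 0.806). A TBX16 difference present with TA and absent without it was thus not established for any gene.

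Among TBX16-low cells, those with TA differed from those without in 2 of 7949 genes, both higher (0.0252%), with 0 lower and 270 under an unadjusted p of 0.05. Here too the cells without TA also lacked MIXL1 by choice, so that this comparison does not tell TA and MIXL1 apart. WNT11 was 0.162, 0.00882 and 0.270 without TA and 1.70, 0.235 and 3.47 with TA. Batch 2, with only 9 cells, had the lowest value with TA and lay within the range without it. The log2 difference was 3.67 (SE 0.45, adjusted p = 0.000450). GATA5, the other called gene, could be tested only through the cells with TA. It had 3 UMIs in 2 cells without TA and sums of 0.539, 0.743 and 0.364 in those with TA, and 53.3% of its UMIs there were in 1 cell. Without batch 3 neither was called, DESeq2 called 3 genes, and no comparison is drawn with the 83 genes of the TBX16-high cells, since the numbers of cells differ.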

How the data were processed

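The deposited table holds raw UMI counts for 13902 genes in 1152 wells, made by the authors; the submitters' processing notes name Bowtie (version not given in the sources used here) and build Zv9. Per the labels' protocols the UMI has 5 random bases and reads come from the transcripts' 5′ ends, so counts of abundant genes are compressed; the highest was 975. All value columns matched a sample. Gene symbols are as deposited. No reference sequence was used.

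Levels are a class's UMIs per 10000 of its total. The UMIs of a class were added up within each batch, and these sums were fitted with edgeR 4.0.16 in R 4.3.3 (quasi-likelihood, TMM, batch as block, Benjamini-Hochberg over all genes tested). The batch pairs the sums, because both classes come from the wells of that batch. Genes with a UMI in 5% of the compared cells were tested, without TBX16, TA, MIXL1 and the 5 keratins. SE is the log2 difference over the square root of F, and intervals are 95%. The cells numbered 287 without TA (127 TBX16-high, 100 TBX16-low), and 285 TBX16-high and 52 TBX16-low with TA. DESeq2 1.42.0 and limma 3.58.1 were alternatives, with other scalings, filters and limits, and each batch left out. Wilson intervals used scipy 1.17.1. No doublets were called, since cells were picked by hand; wells over 5000 genes were left out as an alternative.

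Members and gene lists were chosen with earlier results of these data known. Genes named are, per comparison, called genes with the highest and lowest differences in 1 direction in all batches, up to 4 called members of each list or its 2 members of highest level, and 5 margin genes; others are marked. The comparisons among cells with TA and among TBX16-low cells, the interaction, and the alternatives with TBX16 up to 4, stressed cells, gene-rich wells and near-identical wells were chosen after seeing the data.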

Additional observations from a re-analysis of the deposited data

How the results depend on the processing

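The TBX16 comparison without TA gave 0 calls in either direction with edgeR under DESeq2 size factors, column totals only, thinning to 10000 UMIs, 20000 UMIs or more, other TBX16 or keratin limits, and without gene-rich wells, stressed cells, near-identical wells or cells with other margin genes. For the fit with thinning, the classes were set anew from the thinned counts. That fit held more cells of each class and can include cells whose UMIs of TA or MIXL1 were lost by thinning. It is therefore no check on the same cells. DESeq2 gave 1 lower, no filter on low counts 1 higher and 1 lower, and leaving out a batch 0 to 1 higher and 0 to 1 lower. For named genes not called in their main fit, in the TBX16 and TA comparisons together, 67 of 843 values under alternatives had the other sign. The TA comparison called 0.818% of 8309 genes higher (68) and 15 lower. Leaving out a batch gave 0.244% to 0.927% higher (21 to 78 genes) and 1 to 22 lower, DESeq2 gave 24 lower, TBX16 between 1.5 and 4 gave 0.472% (40) higher and 8 lower, and no filter 0.865% of 13298 genes higher, a larger number of genes. With no replicate block 51 were higher and 3 lower, so the pairing by batch moved the count of lower genes; the TBX16 comparison had 0 calls either way. Among cells with TA (1 higher, 1 lower by TBX16), DESeq2 gave 14 higher and 14 lower, DESeq2 size factors 0 higher, no filter 25 higher and 6 lower, no replicate block 0 and 0, and leaving out a batch 5 to 7 higher and 1 to 5 lower. Among TBX16-low cells (2 higher by TA), no replicate block gave 1 and leaving out a batch 0 to 6. The causes were not tested. The limits are 3 batches, totals as low as 8887 UMIs in a cell, and 9 cells in the smallest sum.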
